A study of Sus scrofa with 17 samples.

Results

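ENSSSCG00000050204, ENSSSCG00000035226, ENSSSCG00000058863 and ENSSSCG00000000151 are 4 of the 26560 genes in the count table. They were chosen because their reads, of modest number in kidneys without extracellular vesicles (EVs), were nearly absent in kidneys that received EVs in both perfusions. RNA-seq was performed on biopsies of 17 kidneys from female wild-type Dutch Landrace pigs aged 6 months to 1 year, with 1 kidney per animal. All kidneys underwent 32 min of warm ischemia, 24 h of hypothermic machine perfusion (HMP) and 5 h of normothermic machine perfusion (NMP) with autologous blood cells, and were sampled at the end of NMP. G1 (5 kidneys) was given PBS in both perfusions, G2 (6 kidneys) was given EVs from porcine urine progenitor cells during HMP only, and G3 (6 kidneys) was given them during HMP and again during NMP. G1 and G3 values chose these genes, so their differences from each other, and from G2, are described here without a test.

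The annotation that the authors joined to their results lists ENSSSCG00000050204 as a long non-coding RNA and the other 3 genes as protein-coding, and no symbol or description is given for any of them. A long non-coding RNA is a transcript that is spliced and often polyadenylated like a messenger RNA but has no recognised protein product. In outbred animals such as farm pigs, a gene can be present in some animals and absent in others, or carry a regulatory variant, and its RNA then appears as all-or-none or in steps between animals. A response to treatment can instead move a transcript by degrees in every animal. No genotypes were analysed here, and neither possibility was tested. Counts of overlapping or near-identical genes cannot be told apart, since the strand setting of the counting is not stated and the positions of these genes are not in the tables used here.

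Total counts ran from 19270046 to 24736473 per kidney. Levels are given as CPM, counts scaled to the library size with edgeR's TMM factors. A kidney without a read of a gene may still hold up to 3 reads' worth of it (counting error only). By total count alone, without TMM factors, that is 0.121 to 0.156 CPM. In bulk tissue, fewer cells of a type cannot be told apart from less RNA per cell. All 8 tubule markers were detected, and their summed level ran from 11838 to 23648 CPM over the 17 kidneys. None of the 29 measured markers of tubule, podocyte, endothelium, stroma, leukocytes and red blood cells passed edgeR's adjusted p of 0.05 between G3 and G1. No red blood cell marker passed, but the median log2 fold change of its 3 measured genes (HBB, ALAS2 and AHSP, of 4 listed) was -0.98. Their summed level ran from 1.42 to 3.47 CPM in G1 and from 0.0948 to 1.96 CPM in G3, and the part of this in the results was not tested.

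ENSSSCG00000050204, the long non-coding RNA, had 98, 63, 55, 63 and 75 reads in G1 kidneys 1 to 5. In G3 kidneys 1 to 6 it had 6, 5, 16, 0, 3 and 12 reads. In G2 kidneys 1 to 6 it had 51, 76, 1, 117, 5 and 36 reads. The G1 kidneys stood close together, all G3 kidneys were below all of them, and the G2 kidneys reached from the bottom of the G3 range to above the top of G1. G1 averaged 3.24 ± 0.620 CPM (SD, n = 5), while G2 averaged 2.15 ± 1.94 CPM (SD, n = 6) and G3 averaged 0.311 ± 0.255 CPM (SD, n = 6). Pooled over kidneys, the G3 level was 8.99% of that of G1. The log2 fold change was -3.37 (standard error 0.474) for G3 against G1, -0.59 (standard error 0.602) for G2 against G1 and -2.76 (standard error 0.783) for G3 against G2.

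ENSSSCG00000035226, a protein-coding gene, had 67, 20, 34, 9 and 49 reads in G1 kidneys 1 to 5. In G3 kidneys 1 to 6 it had 3, 5, 0, 3, 4 and 0 reads. In G2 kidneys 1 to 6 it had 0, 3, 2, 54, 10 and 18 reads. The G1 kidneys themselves were widely spread here, and the lowest of them, kidney 4 at 0.455 CPM, stood near the highest G3 kidney at 0.243 CPM, although G1 and G3 did not overlap. G1 averaged 1.60 ± 0.970 CPM (SD, n = 5), while G2 averaged 0.680 ± 0.932 CPM (SD, n = 6) and G3 averaged 0.115 ± 0.0990 CPM (SD, n = 6). Pooled over kidneys, the G3 level was 6.35% of that of G1. The log2 fold change was -3.77 (standard error 0.630) for G3 against G1, -1.24 (standard error 0.759) for G2 against G1 and -2.51 (standard error 0.947) for G3 against G2. G2 against G1 was -2.87 with the code series in the fit.

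ENSSSCG00000058863, also protein-coding, had 37, 80, 34, 31 and 24 reads in G1 kidneys 1 to 5. In G3 kidneys 1 to 6 it had 2, 13, 0, 5, 1 and 6 reads. In G2 kidneys 1 to 6 it had 0, 5, 14, 52, 0 and 53 reads. No G3 kidney reached the lowest G1 kidney, and G3 kidney 2, at 0.633 CPM, was nearest to it. G1 averaged 1.90 ± 1.01 CPM (SD, n = 5), with kidney 2 alone at 3.66 CPM. G2 averaged 1.02 ± 1.27 CPM (SD, n = 6) and G3 averaged 0.216 ± 0.235 CPM (SD, n = 6). Pooled over kidneys, the G3 level was 9.93% of that of G1. The log2 fold change was -3.17 (standard error 0.601) for G3 against G1, -0.91 (standard error 0.800) for G2 against G1 and -2.23 (standard error 1.00) for G3 against G2. With the code series in the fit, G2 against G1 was -2.42.

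ENSSSCG00000000151, the last of the protein-coding genes, had the fewest reads. It had 22, 27, 13, 11 and 1 reads in G1 kidneys 1 to 5. In G2 kidneys 1 to 6 it had 0, 3, 1, 0, 0 and 11 reads. In G3 it was detected in kidney 3 alone, with 2 reads, and 5 of 6 G3 kidneys had 0. G1 kidney 5, with 1 read, lay below G3 kidney 3, so that G1 and G3 overlapped. G1 averaged 0.681 ± 0.449 CPM (SD, n = 5), while G2 averaged 0.128 ± 0.234 CPM (SD, n = 6). Without G1 kidney 5 the G1 mean was 0.841 ± 0.315 CPM (SD, n = 4). With reads pooled over kidneys, G3 (2 reads) stood at 2.05% of G1 (74 reads), with a 95% exact interval of 0.243% to 7.66% that covers counting error only. The fitted log2 fold change of G3 against G1 was -5.08 (standard error 0.892). It was -6.90 without G3 kidney 3, where all remaining G3 kidneys had 0 reads and the fitted value depends on edgeR's prior count.

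**Figure D1:**
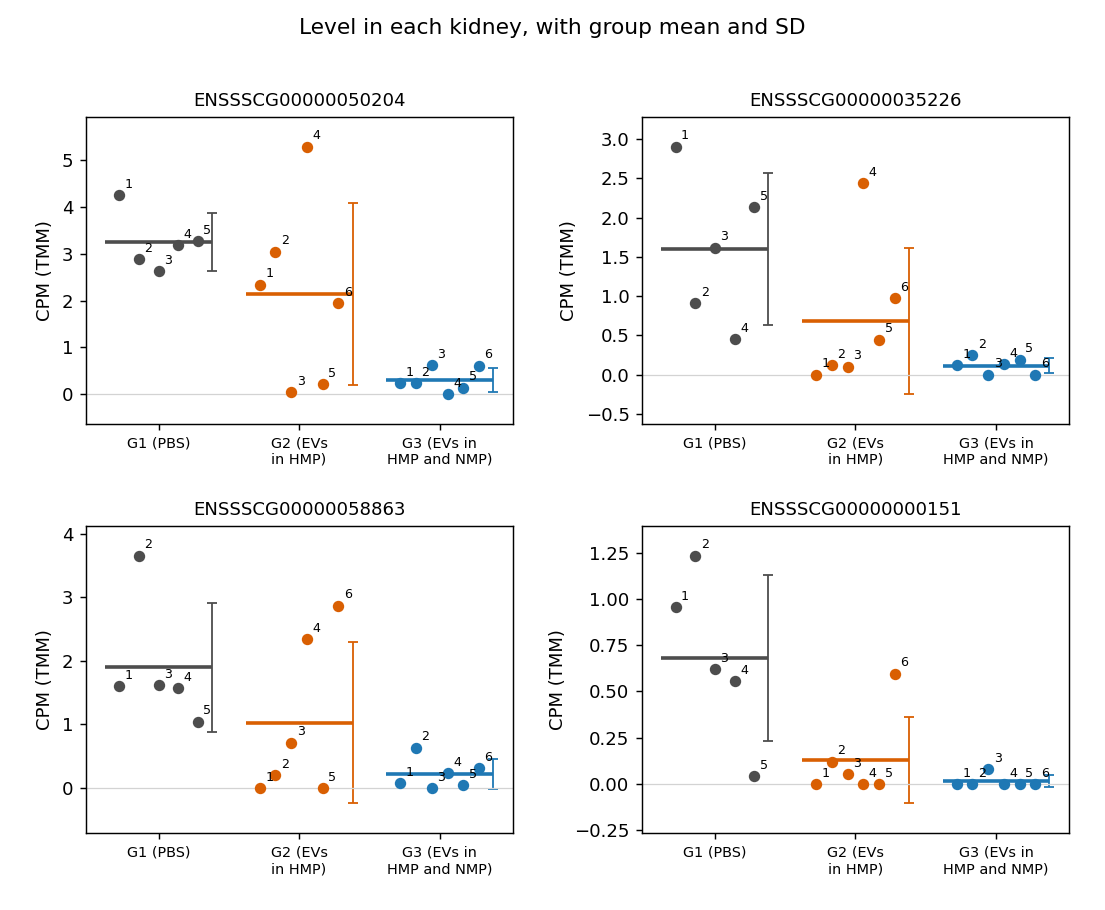
Level in CPM (TMM) of each of the 4 genes in every kidney of G1, G2 and G3, with kidney numbers beside the points. Horizontal lines are group means and error bars are SD (n = 5, 6 and 6). The G3 kidneys lie at or near 0 in all panels, the G2 kidneys spread from the G3 range into that of G1 in the first 3 genes, and G1 kidney 5 lies near 0 for ENSSSCG00000000151.

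In 3 of the 4 genes the highest G3 kidney lay under the lowest G1 kidney, against 0.187% of the 25719 genes tested. A log2 fold change as low as that of ENSSSCG00000058863 or lower was found for 0.42% of genes. Both shares are given as a description, since the genes were selected on this contrast. The median log2 fold change was -3.57 over the 4 genes and -0.02 over all genes tested. Ordered by log2 fold change among the 15105 genes with a G1 mean of at least 0.5 CPM, the 4 genes held places 3 to 6 from the lowest. C2orf72 at -7.06 and ENSSSCG00000062725 at -6.76 stood before them, and ALOX15, a lipoxygenase, followed at -2.68.

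The biopsies carry sample codes in 3 runs of consecutive numbers, called series A, B and C here, whose meaning the labels do not state. G1 has 2 kidneys in series A, 2 in B and 1 in C. G2 has 2 in A and 4 in C, and G3 has 1 in A, 1 in B and 4 in C. The difference in mean log2 CPM between G3 and G1 was -3.45, -3.15 and -3.38 in series A, B and C for ENSSSCG00000050204, and -3.04, -1.53 and -3.87 for ENSSSCG00000035226. It was -3.88, -1.22 and -2.50 for ENSSSCG00000058863. For ENSSSCG00000000151 it was -3.69 and -2.89 in series A and B but -0.34 in series C, where the only G1 kidney is kidney 5. The long non-coding RNA differed by about the same amount in each series, while ENSSSCG00000000151 hardly differed in the series that holds most G3 kidneys. Between G3 and G2, series A gave differences of 0.60 for ENSSSCG00000035226 and 0.07 for ENSSSCG00000058863, opposite in sign to the -2.26 and -2.09 of series C. In series A both G2 kidneys were already low in these genes.

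Whether expression was all-or-none or graded was described by the widest gap between neighbouring kidneys when all 17 were ordered by log2 CPM (prior count 2), with at least 3 kidneys on each side. With the prior count of 2, the gap of ENSSSCG00000000151 was 1.62 and took up 41.9% of its range. Below the gap 12 kidneys had at most 3 reads, and above it 5 kidneys, 4 of G1 and 1 of G2, had at least 11 reads. ENSSSCG00000050204 had a gap of 1.50 (25.6% of its range) between 8 kidneys with at most 16 reads and 9 kidneys with at least 36 reads, and the upper set held all 5 G1 kidneys and 4 G2 kidneys. Of the 14974 genes with a mean of at least 0.5 CPM, 0.280% and 0.327% had gaps as wide, and of the 2531 genes between 0.5 and 2 CPM, 0.553% and 0.711% did. These shares are a description only, because genes picked for high G1 and low G3 levels tend to have a gap between those groups, and ENSSSCG00000000151, with a mean of 0.250 CPM, is itself below both sets of genes.

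With the same prior count ENSSSCG00000058863 and ENSSSCG00000035226 had narrower gaps. The widest gap of ENSSSCG00000058863 was 0.87 (16.2% of its range), between 6 reads in G3 kidney 6 and 13 reads in G3 kidney 2, and it divided the G3 kidneys themselves. That of ENSSSCG00000035226 was 1.08 (21.4% of its range). It only set 3 kidneys without a read apart from those with 2 reads or more, above which levels rose to 67 reads. With G2 kidney 1, G3 kidney 3 or G3 kidney 6 left out in turn, the widest gap of this gene was 0.88, with 10 kidneys below it. Gaps as wide as 0.87 and 1.08 were found in 1.59% and 0.815% of the genes with a mean of at least 0.5 CPM. Among the 2531 genes between 0.5 and 2 CPM, where both genes lie, the shares were 4.50% and 2.41%. With a prior count of 0.5 the order of the 4 genes reversed in part. ENSSSCG00000035226 then had the widest gap at 2.45, ahead of ENSSSCG00000000151 at 2.02, and ENSSSCG00000058863 at 1.62 stood level with ENSSSCG00000050204 at 1.60. In both ENSSSCG00000035226 and ENSSSCG00000058863 that gap lay between 3 kidneys without a read and the rest, and which genes had the wider gaps depended on the prior count.

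Counting error limits how sharp any of these gaps can be. For all 4 genes the 95% exact Poisson intervals of the kidneys beside the gap overlapped, which does not show that their counts were equal. For ENSSSCG00000050204 they were 9.15 to 26.0 reads for G3 kidney 3 and 25.2 to 49.8 reads for G2 kidney 6. For ENSSSCG00000000151 they were 0.619 to 8.77 reads for G2 kidney 2 and 5.49 to 19.7 reads for G1 kidney 4. The spread within G2 was wider than counting error. There chi-square per degree of freedom was 40.5 for ENSSSCG00000050204, 29.6 for ENSSSCG00000035226, 31.8 for ENSSSCG00000058863 and 7.73 for ENSSSCG00000000151. In G1 these values were 3.47, 13.9, 13.1 and 7.17, and in G3, where reads were few, they were 4.29, 1.98, 5.23 and 1.81.

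**Figure D2:**
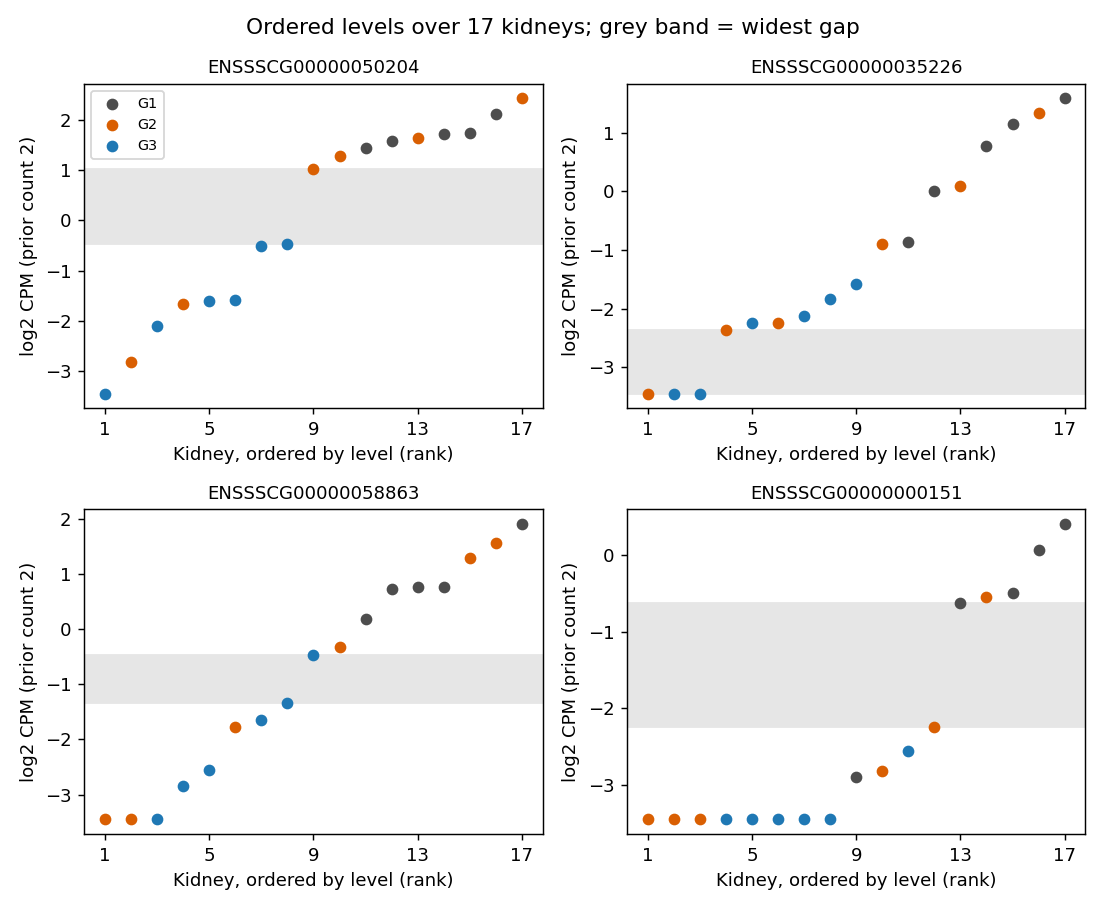
The 17 kidneys ordered by log2 CPM (prior count 2) for each gene, coloured by group, with the widest gap as a grey band. The band is widest for ENSSSCG00000000151 (1.62) and ENSSSCG00000050204 (1.50), and narrower for ENSSSCG00000035226 (1.08) and ENSSSCG00000058863 (0.87) at this prior count.

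G2 kidneys were not used to choose these genes, and they show whether the 4 genes move as one. G2 kidney 6 was at or above the lowest G1 kidney in 3 of the genes and at 60.2% of the G1 mean in ENSSSCG00000050204. G2 kidney 4 was at 163.1%, 151.9% and 123.7% of the G1 mean in ENSSSCG00000050204, ENSSSCG00000035226 and ENSSSCG00000058863, but had no read of ENSSSCG00000000151. G2 kidneys 1 and 2 parted the long non-coding RNA from the coding genes. They stood at 72.3% and 93.9% of the G1 mean in ENSSSCG00000050204, at 0 and 7.48% in ENSSSCG00000035226, and at 0 and 10.5% in ENSSSCG00000058863. G2 kidney 3 showed the opposite order, with 1.57% in ENSSSCG00000050204 and 37.5% in ENSSSCG00000058863. G2 kidney 5 was at most at 27.8% in any of the 4 genes.

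The G2 kidneys of ENSSSCG00000050204 fell into separate clusters of 2 and 4, with a gap over 51.5% of their range, so no correlation is given for its pairs. Its 4 high kidneys in G2 held 2 kidneys within the G3 range of ENSSSCG00000058863 and 2 above it. For the other 3 pairs, Pearson's r of log2 CPM over the 6 G2 kidneys was 0.70 between ENSSSCG00000035226 and ENSSSCG00000058863 (two-sided exact permutation test, p = 0.128, adjusted p = 0.725). It was 0.55 between ENSSSCG00000058863 and ENSSSCG00000000151 (exact permutation test, p = 0.242, adjusted p = 0.725) and 0.20 between ENSSSCG00000035226 and ENSSSCG00000000151 (exact permutation test, p = 0.708, adjusted p = 0.833). The adjustment covers the 6 pairs computed. Spearman's rho was 0.64, 0.59 and 0.09 (exact permutation test, p = 0.20, 0.233 and 0.883, with adjusted p of 0.70, 0.70 and 0.883). Without the 2 kidneys farthest from the median of the first gene of each pair, r was 0.34, -0.11 and 0.57. No pair passed the test, and r of the first pair fell and that of the second was lost without those 2 kidneys.

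**Figure D3:**
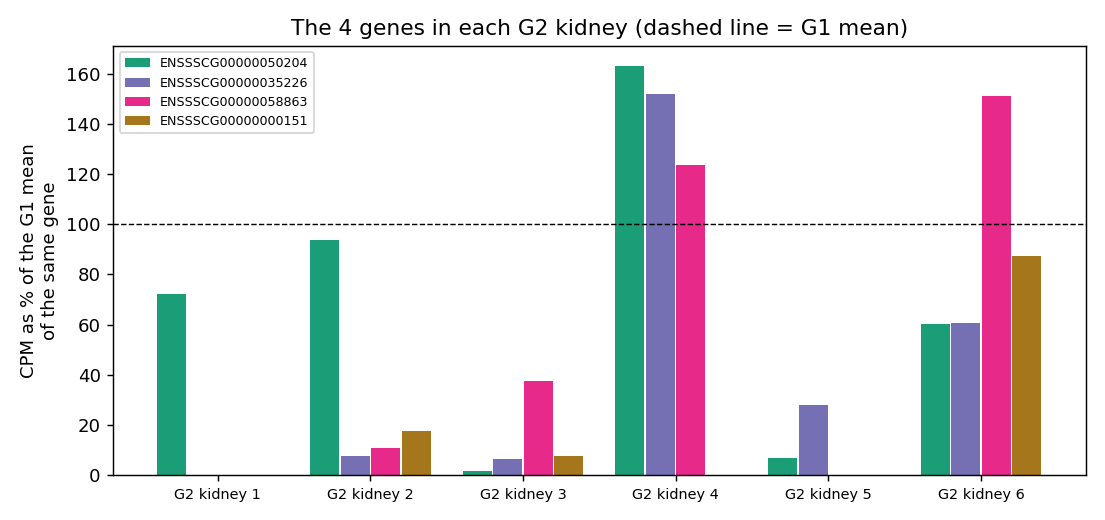
CPM of the 4 genes in each of the 6 G2 kidneys, as a percentage of the G1 mean of the same gene (dashed line, 100%). G2 kidney 4 is above the G1 mean in 3 genes and at 0 in ENSSSCG00000000151, and G2 kidneys 1 and 2 are near the G1 mean in ENSSSCG00000050204 alone.

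Genes with a pattern like that of each of the 4 were ranked by Pearson's r of log2 CPM over all 17 kidneys, among the 14974 genes with a mean of at least 0.5 CPM. The correlations share libraries and, where a gene also moved from G1 to G3, that group difference, and are given as a description. The 3 genes most like ENSSSCG00000058863 were SELENOW (r = 0.89), which encodes a small selenoprotein, BCAT2 (r = 0.83), the mitochondrial enzyme that begins the breakdown of branched-chain amino acids, and TMEM143 (r = 0.83). In the RefSeq annotation of Sscrofa11.1 all 3 lie close together on chromosome 6. SELENOW runs from 53470563 to 53474662, TMEM143 from 53763059 to 53784343 and BCAT2 from 54107682 to 54123595. With group means subtracted r was 0.87, 0.69 and 0.76 for SELENOW, BCAT2 and TMEM143, and over the 6 G2 kidneys alone it was 0.95, 0.85 and 0.89.

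The kidney values show a similar order, though not the same one. SELENOW was at 18.9, 24.2, 30.8, 30.5, 21.2 and 39.2 CPM in G2 kidneys 1 to 6, and BCAT2 at 82.0, 57.0, 103.7, 126.7, 58.8 and 132.8 CPM. Kidneys 1, 2 and 5, with at most 5 reads of ENSSSCG00000058863, were the lowest 3 in both genes, and kidneys 4 and 6, with 52 and 53 reads, were the highest 2 in BCAT2. In SELENOW, kidney 3, with 14 reads, stood just above kidney 4. In BCAT2, kidney 1, with 0 reads, stood above kidney 2, with 5. BCAT2 fell in G3 from 125.7 ± 14.7 to 74.2 ± 3.74 CPM (SD, n = 5 and 6), by edgeR's test (log2 fold change -0.77 ± 0.104 standard error, adjusted p = 0.0229), a call that 0.00778% of genes reached in this direction. No gene was called when all 3 groups were fitted together. BCAT2, SELENOW and TMEM143 were picked by r over kidneys that include G1 and G3, with a gene chosen on those groups. Their tests of G3 against G1 therefore reuse values that picked them. The same holds for the other like and opposite genes named below. SELENOW, at 30.1 ± 1.84 CPM in G1 (SD, n = 5) and 23.9 ± 2.49 CPM in G3 (SD, n = 6), did not pass (-0.34 ± 0.106 on the log2 scale, edgeR adjusted p = 0.813). TMEM143 did not pass either (-0.55 ± 0.173 on the log2 scale, edgeR adjusted p = 0.813).

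This shared position was noticed only after the ranking and was then described more widely. Among the 20 genes most like ENSSSCG00000058863, 16 have a position, and 6 of these (37.5%) lie on chromosome 6, which holds 10.6% of the 11662 ranked genes with a position. Such a share was not particular to this gene. Of the 20 genes most like ENSSSCG00000000151, 14 have a position and 3 (21.4%) lie on chromosome 15, which holds 4.00% of the same ranked genes. For ENSSSCG00000050204, 3 of 16 (18.75%) lie on chromosome 12, which holds 6.09%. For ENSSSCG00000035226, 3 of 10 lie on chromosome 6 as well. From 500 kb before SELENOW to 500 kb after BCAT2 lie 56 ranked genes. Their r with ENSSSCG00000058863 ran from -0.34 to 0.89 with a median of 0.19, and 8 of them (14.3%) were above 0.5, against 1.31% of all ranked genes. SELENOW, TMEM143 and BCAT2, whose high r placed the window, are 3 of those 8, and without them 5 of 53 genes (9.43%) were above 0.5. These 5 were C5AR2, SPHK2, NUCB1, FUT2 and LIG1, from 0.65 down to 0.56. Of the same 53 genes, 5.66% were above 0.5 with each of ENSSSCG00000035226, ENSSSCG00000000151 and ENSSSCG00000050204, against 1.38%, 1.26% and 2.30% of all ranked genes. Most genes of the stretch did not follow ENSSSCG00000058863, whose own position is not known from the tables used here.

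**Figure D4:**
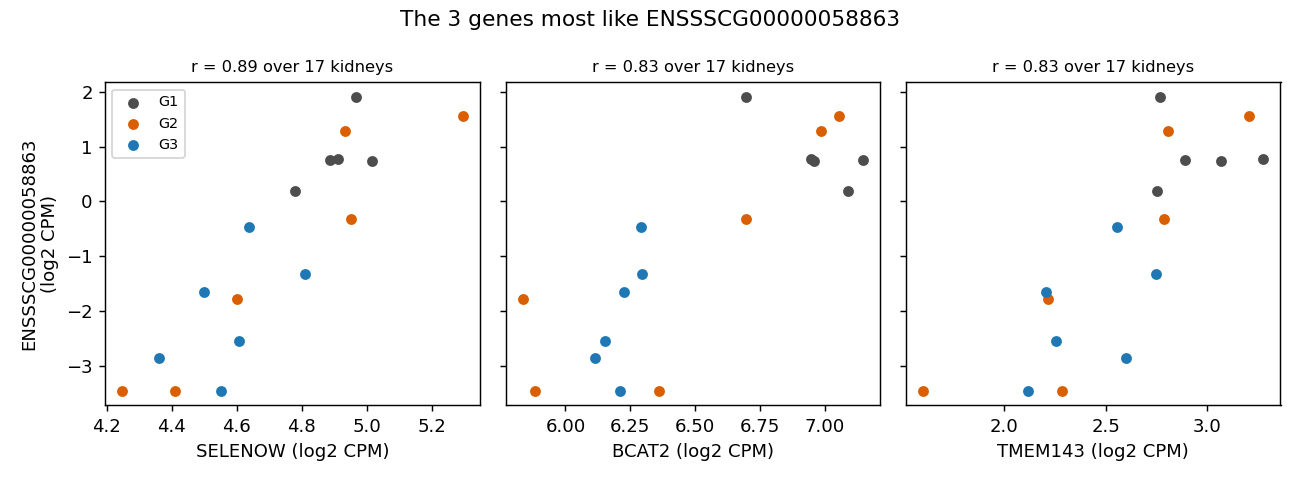
Log2 CPM of ENSSSCG00000058863 (vertical axis) against SELENOW, BCAT2 and TMEM143 (horizontal axes) in the 17 kidneys, coloured by group. The G2 kidneys run along the whole cloud in each panel (r = 0.89, 0.83 and 0.83 over 17 kidneys).

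The 3 genes most like each of the others lay on different chromosomes or had no position. For ENSSSCG00000035226 they were CCDC89 on chromosome 9 (r = 0.76), GSTA4 on chromosome 7 (r = 0.75), a glutathione transferase that detoxifies products of lipid peroxidation, and ENSSSCG00000058863 itself (r = 0.75). For ENSSSCG00000000151 they were TMEM80 on chromosome 2 (r = 0.82), FKBP7 on chromosome 15 (r = 0.78), a prolyl isomerase of the endoplasmic reticulum, and TSC22D3 on chromosome X (r = 0.77), the glucocorticoid-induced leucine zipper. For ENSSSCG00000050204 they were NRIP3 (r = 0.85) and the unnamed ENSSSCG00000005475 (r = 0.80) and ENSSSCG00000058198 (r = 0.80), with no position in the tables used here. With group means subtracted these correlations were between 0.54 and 0.77. Leaving aside ENSSSCG00000058863, which was chosen on this contrast, edgeR's test of G3 against G1 gave an adjusted p of 0.460 for NRIP3 and 0.813 for each of the others, and none passed.

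The genes most opposite in pattern had r between -0.83 and -0.70. They were ACSM4, a medium-chain acyl-CoA synthetase, for ENSSSCG00000050204 (r = -0.83), TMEM220 for ENSSSCG00000035226 (r = -0.74), MAP3K4, a kinase of the stress response, for ENSSSCG00000058863 (r = -0.70), and GRK5, a kinase of G protein-coupled receptors, for ENSSSCG00000000151 (r = -0.78). ACSM4 was at 409.6 ± 77.9 CPM in G1 (SD, n = 5) and 562.9 ± 124.3 CPM in G3 (SD, n = 6), with an adjusted p of 0.813 from edgeR, and the other 3 had the same adjusted p.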

How the data were processed

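The authors trimmed adapters from the read pairs with cutadapt 4.0, aligned them with STAR to Sscrofa11.1 with Ensembl annotation, and deposited unnormalised counts of each gene. The counting program is not given in the sources used here. The libraries came from a stranded mRNA kit. The authors' second table holds annotation text (unit other), which was used for biotypes, together with fold changes and p-values of their own DESeq2 run for 935 genes, which were left aside.

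Kidneys were grouped by the sample titles. Each pair of groups was fitted on all genes with at least 1 count by the quasi-likelihood test of edgeR 4.0.16 (R 4.3.3, TMM, Benjamini-Hochberg). Standard errors were the log2 fold change over the root of F. Alternatives were DESeq2 1.42.0, other size factors and filters, all 3 groups, code series, a replicate block and leaving out each kidney. Fits, gaps and ranking were tested on simulated data. Symbols matched 15093 of 26560 identifiers. Positions came from RefSeq by symbol.

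The members and lists were chosen with earlier results of these data known. The genes named were the 4 members, the 3 most like and 1 least like each over the 17 kidneys, markers, and genes named beside a count. Neighbouring genes were not analysed here, as the members have no position.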

Additional observations from a re-analysis of the deposited data

Results flagged for a closer look

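Dixon's test was run on 15 groups of values (each of the 4 genes and the total count, in G1, G2 and G3). In 3 of them a kidney stood far from the others of its group. For normal values chance would give about 1 in 20, or 0.75 of these 15. The 4 genes have low counts with many zeros, and G1 and G3 values chose them. The 3 are therefore not read as an excess. G1 kidney 2 was at 3.66 CPM of ENSSSCG00000058863 and the next kidney at 1.62 CPM, a gap of 0.780 of the G1 range. G2 kidney 6 was at 0.596 CPM of ENSSSCG00000000151 and the next kidney at 0.120 CPM, a gap of 0.798 of the G2 range. G3 kidney 3 was at 0.0786 CPM of ENSSSCG00000000151, from 2 reads, and the other 5 G3 kidneys were at 0, so that this value is within counting error of 0. With the others all at 0, any value above 0 would have been flagged.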

How the results depend on the processing

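A level under 0.121 to 0.156 CPM cannot be told from 0 at this depth. Low reads keep ENSSSCG00000035226 and ENSSSCG00000000151 out of the fit of G3 and G1 with filterByExpr. In the fit of G3 and G2, filterByExpr also left out ENSSSCG00000058863, so that only ENSSSCG00000050204 had a value. The log2 fold changes of all 4 genes kept their sign in all 3 comparisons under every alternative that gave a value. That of ENSSSCG00000000151 between G3 and G1 was -4.05 in a fit that included the code series, and ran from -6.90 to -4.75 with 1 kidney left out. For the others these ranges were -3.73 to -3.11 (ENSSSCG00000050204), -4.10 to -3.45 (ENSSSCG00000035226) and -3.86 to -2.77 (ENSSSCG00000058863). Between G3 and G2, ENSSSCG00000000151 was at -1.02 without G2 kidney 6 and -4.48 without G3 kidney 3, beside -2.68 with all kidneys. Between G2 and G1 it was at -4.06 without G2 kidney 6, beside -2.44, and with the code series in the fit ENSSSCG00000035226 was at -2.87, beside -1.24, and ENSSSCG00000058863 at -2.42, beside -0.91. Over the whole table edgeR called 2 genes at an adjusted p of 0.05 for G3 against G1. The count was 29 with DESeq2, 11 with the code series, 1 with filterByExpr, and 0 with all 3 groups in the fit, where 1126 genes had an unadjusted p under 0.05. It ran from 0 to 9 with 1 kidney left out, with 0 without G1 kidney 1, G1 kidney 3, G3 kidney 2 or G3 kidney 5 (990 to 1222 genes at an unadjusted p under 0.05), 1 without G3 kidney 1 or 4, 4 without G1 kidney 4 and 9 without G1 kidney 5. The cause was not tested. The agreement of ENSSSCG00000035226 with ENSSSCG00000000151 in G2 ran from r = -0.35 without kidney 6, and -0.01 without kidney 1, to 0.67 without kidney 4. With a prior count of 0.5 the widest gaps were 1.60, 2.45, 1.62 and 2.02 for ENSSSCG00000050204, ENSSSCG00000035226, ENSSSCG00000058863 and ENSSSCG00000000151, which reversed their order in part, and that of ENSSSCG00000058863 then lay above 3 kidneys without a read.

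Sample numbers are shared between groups. The deviations of same-numbered kidneys correlated above 0.1 in 8 of 16 pairs (range -0.24 to 0.43). Of the 17 kidneys, 7 correlated best with a kidney of their own number. How many would do so without pairing was not computed, so these correlations alone do not decide on pairing. With 1 kidney per animal, same-numbered kidneys did not come from the same animal. The numbers run within each group in order of the sample codes. G1 kidney 3 is in series B but G2 kidney 3 in series C, and nothing in the labels pairs kidneys by number. With sample number as a replicate block, 9 genes passed between G3 and G1, and the log2 fold changes between G2 and G1 were -1.25, -2.34, -2.47 and -4.21 for ENSSSCG00000050204, ENSSSCG00000035226, ENSSSCG00000058863 and ENSSSCG00000000151.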
